A study of Gossypium hirsutum with 8 samples.

Results

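The experiment compared whole roots of upland cotton (Gossypium hirsutum, cultivar Sicot 71) after 4 h of flooding with whole roots of plants that were watered as usual. It held 4 of the 8 arrays of the series, 2 flooded and 2 control, chosen by the tissue and treatment in their titles, and each array is labelled as a separate biological replicate. The plants had been raised in soil in a glasshouse until they carried 2 leaves, and water then covered everything below the hypocotyl of the flooded plants. The labels name no transgene, mutation or added agent, and do not say from how many plants the RNA of an array was taken. Total RNA was read on the Affymetrix cotton array, on which a probe set, a group of short oligonucleotides, reads 1 transcript or several related ones. The values were log2 signals as deposited, so that a difference of 1 is a 2-fold change. The comparison asks which transcripts respond in the root within hours of waterlogging.

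Roots under water run short of oxygen, because gases move slowly through water while respiration goes on. When mitochondrial respiration falters, plant cells turn to sucrose breakdown and fermentation for ATP, and costly processes such as cell wall growth are known to be held back in many species. Ethylene collects in submerged tissue, and members of the ethylene response factor (ERF) family of transcription factors are central regulators of the low-oxygen response in Arabidopsis and rice. Cotton is generally regarded as sensitive to waterlogging.

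Of the 24132 probe sets, 103 manufacturer controls and 52 reporter sets were left out and 23977 were tested. Array medians lay between 6.15 and 6.17. The control arrays were further apart than the flooded ones. They correlated at r = 0.953 across probe sets against 0.991 for the flooded pair, and differed at least 2-fold at 3164 probe sets (13.2%) against 269 (1.12%). Control root replicate 2 stood apart: its signals had an SD of 2.01 across probe sets, against 2.16 to 2.19 on the other 3 arrays, and its reporter sets a median of 5.52 against 4.92 to 5. The leaf marker RCA1, rubisco activase, lay between the 30.43rd and 43.75th percentile of the root arrays and at or above the 99.98th on the leaf arrays. No aquaporin of the TIP class, nitrate transporter or phosphate transporter of roots was matched by name. The Casparian strip-like gene GhCASPL2A1 read 4.69 to 5.66 on the root arrays, under the reporter bound given below. On the leaf arrays 1 of its 2 probe sets lay between the 96.06th and 96.53rd percentile, so it did not mark the root. Among named markers, only the low reading of RCA1 bears on the root label.

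Flooding changed 1023 probe sets at a limma adjusted p under 0.05 (4.27% of those tested), of which 600 rose (2.5%) and 423 fell (1.76%). All 1023 changed at least 2-fold, and in each of them the lowest array of the higher group was at least 2-fold above the highest of the other. With 2 arrays per group the threshold lets through hardly anything smaller, so this is no trait of the response. Rises reached further than falls. The median called rise was 4.86-fold and the median called fall 3.79-fold, and 72 rises but 6 falls were 16-fold or more. Past 32-fold there were 30 rises and 0 falls. Over all tested probe sets the median log2 change was -0.02, and at an unadjusted p under 0.05 10.3% were higher and 7.53% lower. Without counting any variance, 883 probe sets (3.68%) had both flooded arrays at least 2-fold above both controls and 618 (2.58%) had both at least 2-fold below. The counts depended on which arrays were used. Leaving out control root replicate 1 or 2 kept all 1023 calls and brought the totals to 3962 rises and 3365 falls, or to 1527 rises and 2176 falls. Leaving out either flooded array left 0 calls in limma, with 1148 rises and 792 falls at an unadjusted p under 0.05 without flooded root replicate 1 and 1326 and 874 without flooded root replicate 2. With a flooded array gone, the spread comes from the control pair alone, whose root mean square SD was 0.477 against 0.208 for the flooded pair. With a control array gone it comes from the tighter flooded pair alone, so that the calls kept there say little about stability. With 2 arrays in each group, the smallest two-sided p of an exact permutation test is 0.333.

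**Figure D1:**
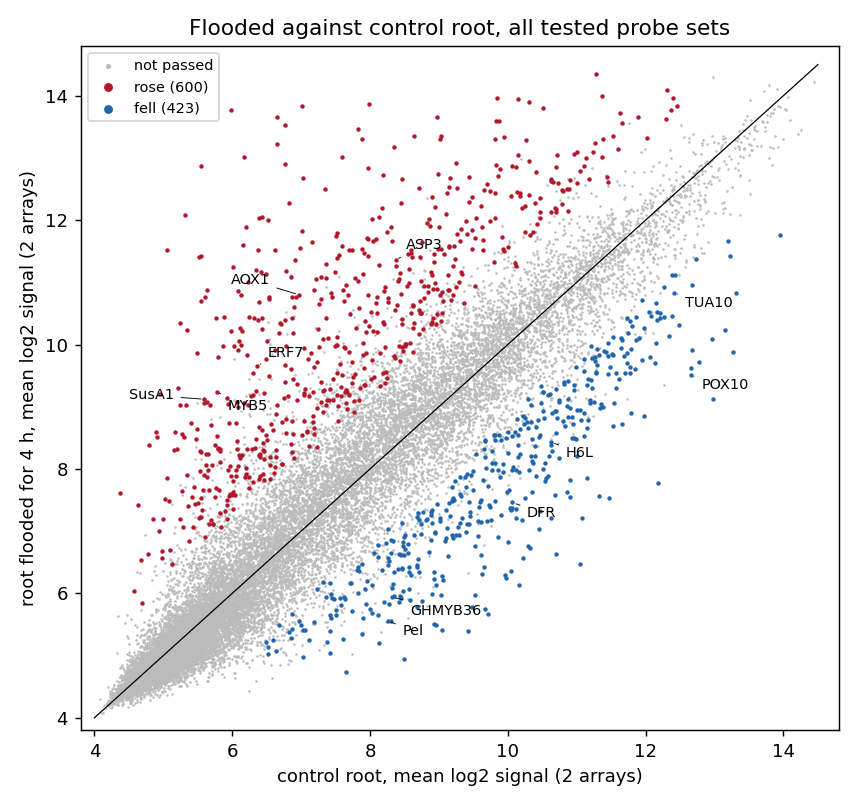
Mean log2 signal of each tested probe set in control root (x axis) and in root flooded for 4 h (y axis), with 2 arrays per group; the line marks equal signals. The 600 rises (red) extend further from the line than the 423 falls (blue), and 11 of the named genes are marked.

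The largest changes belonged to probe sets that the platform's gene table does not name. Of the 1023 calls, 953 (93.2%) were not paired with a single gene. Of all 23977 tested probe sets, 23234 were paired with no gene and 46 with several, so this holds for the whole array and is no trait of the calls. The probe set GhiAffx.5828.1.S1_s_at went from control signals of 7.04 and 4.92 to 13.78 and 13.75 after flooding, and so rose 221-fold (log2 change 7.79, SE 0.72, limma adjusted p = 0.021). Its flooded arrays were nearly level, while its control arrays differed from each other by more than 2 log2 units. GhiAffx.64116.1.S1_at went from 5.88 and 5.22 to 12.93 and 12.80 (159-fold, limma adjusted p = 0.0089). The largest falls were in Ghi.1201.1.A1_s_at, from 11.15 and 10.96 to 6.23 and 6.71 (24-fold), and GhiAffx.39932.1.A1_at, from 12.36 and 12.01 to 6.83 and 8.70 (21.3-fold). The last of these did not pass when arrays were weighted by their fit (adjusted p = 0.12). Both flooded arrays had a weight of 2.64 and both control arrays 0.379. That setting thus weighted whole groups and did not tell control root replicate 2 from replicate 1. What these 4 probe sets encode is not stated in the tables used here.

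Among the 697 probe sets paired with 1 gene, 30 rose and 40 fell, and of the 324 whose gene carries a name other than a locus number, 13 rose and 23 fell. Falls thus made up the larger part of the calls among named genes and the smaller part among all probe sets. At an unadjusted p under 0.05, 45 of the 324 were higher and 80 lower. The named genes are no random draw of the transcriptome. Of the 24 genes with the largest called changes, 12 have a locus number only. Among the largest rises was that of LOC107924007, from 7.54 and 7.14 in control to 12.35 and 12.67 in flooded root (35.9-fold, limma adjusted p = 0.0089). LOC107937059 rose 35.7-fold, from 5.4 and 5.68 to 11.03 and 10.37, with control arrays so dim that its place beside LOC107924007 has no order, and LOC107946138 rose 29.6-fold with flooded arrays 2 log2 units apart (11.25 and 9.21), and it did not pass with array weights (adjusted p = 0.11). LOC107907037 (log2 change 3.8), LOC107929867 (3.77) and LOC107942147 (3.58) followed. Falls of this kind were led by 1 probe set of LOC107889072, from 12.66 and 12.70 to 10.26 and 9.56 (log2 change -2.77, limma adjusted p = 0.024). Other probe sets of this gene did not pass and stood at -0.87, -1.03 and 0.27 (limma adjusted p = 0.17, 0.23 and 0.58). LOC107938356 (-2.55), LOC107888596 (-2.43), LOC107954320 (-2.39), LOC107945007 (-2.35) and LOC107901787 (-2.26) fell as well. A second probe set of LOC107888596 stood at -0.68 with overlapping groups (limma adjusted p = 0.56). With array weights LOC107907037 (adjusted p = 0.058) and LOC107945007 (0.078) did not pass. PAP1, whose symbol has several uses, rose on both of its probe sets (log2 changes 3.47 and 1.69), and ASP3, likewise of uncertain product, rose from 8.60 and 8.14 to 11.51 and 11.20.

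**Figure D2:**
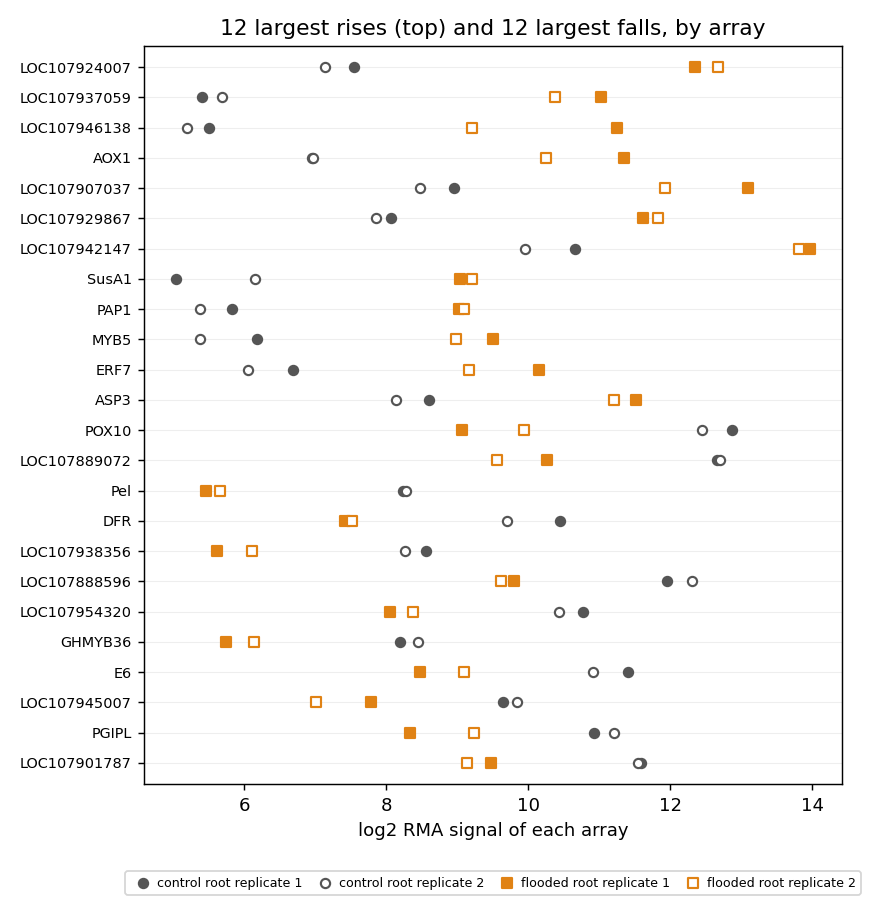
Log2 signal of each of the 4 root arrays (x axis) for the 12 largest rises and the 12 largest falls among probe sets that are paired with 1 gene and passed the test. Circles are control root, squares flooded root, filled for replicate 1 and open for replicate 2; the groups are separate in every row because the selection required it, and the distance within a pair is widest for the flooded arrays of LOC107946138.

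In energy metabolism, 1 sucrose synthase and the alternative oxidase rose while the other sucrose synthases did not. SusA1 (LOC107910106), an enzyme that splits sucrose without using ATP, read 5.04 and 6.15 in control and 9.04 and 9.20 in flooded root, 11.5-fold higher (log2 change 3.53, SE 0.41, limma adjusted p = 0.028). Its control arrays were over 1 log2 unit apart and its flooded arrays nearly level. A second SusA1 probe set stood at 1.5 (limma adjusted p = 0.1), with 4.87 and 5.58 against 6.96 and 6.48. The sucrose synthase susC read 9.77 and 9.66 in control and 9.04 and 9.19 in flooded root (-0.60, limma adjusted p = 0.2). The last one, Sus1, was bright and nearly level on all 4 arrays, between 13.75 and 13.87 (-0.08, SE 0.18). PEPC1, the phosphoenolpyruvate carboxylase that feeds carbon into organic acids, stood at -0.93 with groups apart (limma adjusted p = 0.076). Across all probe sets 2.5% rose and 1.76% fell, and across the 324 named ones 4.01% and 7.1%. Of the 5 probe sets of this list 1 rose and 0 fell (4 differed at an unadjusted p under 0.05, 2 in each direction), and the median change was -0.08. When either control array was left out, 2 rose and 1 fell. Without either flooded array 0 passed in limma, with 2 rises at an unadjusted p under 0.05. Genes named for the fermentation enzymes, alcohol dehydrogenase and pyruvate decarboxylase, were not among those the table names. The 1 symbol that could stand for a haemoglobin, HB4, may equally be a homeobox gene and stood at 0.20.

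AOX1 (LOC107939301), the oxidase that hands electrons to oxygen past the cytochrome chain, was at 6.96 and 6.97 without flooding and at 11.35 and 10.25 with it. It rose 14.2-fold (log2 change 3.83, SE 0.41, limma adjusted p = 0.024), and here the control arrays were level and the flooded ones apart. GOX, whose symbol can mean glycolate oxidase or another oxidase, rose from 10.60 and 10.34 to 12.38 and 12.31 (log2 change 1.88, limma adjusted p = 0.024). The antioxidant enzymes gave smaller differences. The mitochondrial superoxide dismutase Mn-SOD went from 5.98 and 6.44 to 7.53 and 7.86 on 1 probe set (1.48, limma adjusted p = 0.06) and stood at 0.46 on the other. The stromal ascorbate peroxidase sAPX stood at 0.32, the catalase CAT2 at -0.51 and the dehydroascorbate reductase DHAR1 at -0.09. The 4 probe sets labelled GST, for glutathione transferases, lay between -0.27 and 1.25. Of 14 probe sets for alternative respiration and antioxidants 2 rose and 0 fell (5 and 0 at an unadjusted p under 0.05), where 2.5% of all probe sets rose, and the median was 0.36. With 1 array left out, 6 and 3 rose (control root replicate 1 and 2) and 0 passed without either flooded array, where 3 rose at an unadjusted p under 0.05.

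The class III peroxidases, secreted haem enzymes that cross-link or loosen walls, held 1 of the largest falls. POX10 (LOC107937645) dropped from 12.87 and 12.44 to 9.07 and 9.94, an 8.86-fold fall (log2 change -3.15, SE 0.37, limma adjusted p = 0.028). All 4 arrays were well above the reporter bound, and the flooded pair spread wider than the control pair. The gene labelled only peroxidase (LOC107905931) stood at -1.26 (limma adjusted p = 0.064) and POX5 at -1.38 (0.18). The one with the opposite sign and separate groups by the largest margin, pod7, stood at 0.78 (0.12). Where 1.76% of all probe sets and 7.1% of named ones fell, 1 of the 12 peroxidase probe sets fell and 0 rose. At an unadjusted p under 0.05, 3 were lower and 1 higher, and the median was -0.25. The falls numbered 3 and 5 without control root replicate 1 and 2, each time with 1 rise, and 0 without either flooded array, with 2 at an unadjusted p under 0.05.

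Among ethylene genes, ERF7 rose and the genes of ethylene synthesis did not pass. ERF7 (LOC107941184), an ethylene response factor, read 6.68 and 6.05 in control and 10.15 and 9.16 in flooded root, 9.79-fold higher (log2 change 3.29, SE 0.43, limma adjusted p = 0.032). With array weights it did not pass (adjusted p = 0.059). ERF3 stood at -0.48, with 9.28 and 9.12 in control and 8.68 and 8.76 in flooded root (limma adjusted p = 0.3). ERF8 stood at -0.04 and the 2 probe sets of ERF9 at 0.13 and 0.02. RAV, a factor with both an AP2 and a B3 DNA-binding domain in other species, stood at 1.90, 1.51 and 0.69 on its 3 probe sets (limma adjusted p = 0.1, 0.26 and 0.18). Its flooded arrays lay above its control arrays on all 3, as they did on 25.1% of all probe sets. ACC synthase makes the ethylene precursor and ACC oxidase turns it into ethylene. ACS1 read 12 and 11.94 in control and 11.04 and 10.78 in flooded root (-1.06, limma adjusted p = 0.069), and ACS3 stood at -1.70 (0.13). The gene labelled ACS, which may or may not be an ACC synthase, stood at 2.00 on 1 probe set (8.45 and 6.85 against 5.57 and 5.72; limma adjusted p = 0.16). Its other 3 probe sets lay between -0.10 and 0.20. The ACC oxidase genes stood at -0.57 and -1.21 (both labelled ACO1) and -0.68 (ACO3). Rises made up 2.5% of all probe sets and 4.01% of named ones. Of 17 ethylene probe sets 1 rose and 0 fell (5 and 3 at an unadjusted p under 0.05), with a median of 0.02. Leaving out control root replicate 1 or 2 gave 2 or 3 rises and 1 fall, and 0 passed without either flooded array (3 and 3, or 4 and 1, at an unadjusted p under 0.05).

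Among other transcription factors 1 rose and 1 fell, both of the MYB family. MYB5 (LOC107912305) rose 11.1-fold, from 6.18 and 5.37 to 9.50 and 8.98 (log2 change 3.47, SE 0.36, limma adjusted p = 0.024). A related gene, MYB6, shares the MYB5 symbol in the annotation and stood at 0.79 (limma adjusted p = 0.26). GHMYB36 (LOC107941297) fell 5.19-fold, from 8.19 and 8.45 to 5.74 and 6.14 (limma adjusted p = 0.023). The gene labelled only MYB stood at 0.96 and MYB1 at 0.50. None of the 12 probe sets of the 7 NAC genes passed. NAC2 came nearest, with 9.96 and 10.50 in control and 12.08 and 11.38 in flooded root (1.5, limma adjusted p = 0.1) and 1.18 on its second probe set. NAC5 stood at 0.61 and NAC7 at 0.68 and 0.44, in each case with both flooded arrays above both controls. The same held for 25.1% of all probe sets and for 72 of the 324 named ones. CBF17, of the family that binds drought and cold response elements, stood at -0.83 and -0.28. The developmental MADS genes lay between -0.18 and 0.41. The calls were 2.7% of the 37 probe sets in each direction, where 2.5% of all probe sets rose and 1.76% fell. Of the 324 named ones 4.01% rose and 7.1% fell. At an unadjusted p under 0.05, 8 of the 37 were higher and 2 lower, and the median was 0.12. Leaving out control root replicate 1 or 2 gave 5 or 3 rises and 2 falls. Without either flooded array 0 passed, while 1 or 4 rose and 1 fell at an unadjusted p under 0.05.

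**Figure D3:**
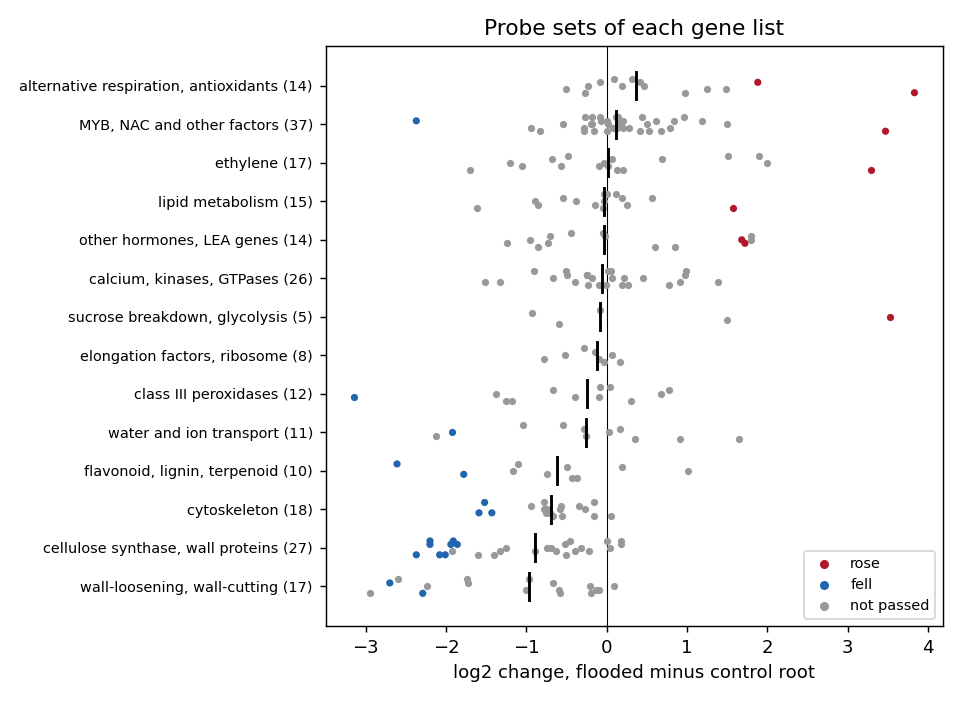
Log2 change (flooded minus control root, x axis) of every probe set in each gene list of more than 1 member, with the number of probe sets in brackets and the list median as a black bar. Red and blue points passed limma at an adjusted p under 0.05; the lists of wall proteins, wall enzymes and the cytoskeleton lie almost wholly left of 0, with medians of -0.89, -0.97 and -0.69.

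The cell wall held the largest group of falls. Of 27 probe sets for cellulose synthase and structural wall proteins, 8 passed as falls and 0 as rises (15 and 0 at an unadjusted p under 0.05), against 1.76% of all probe sets that fell. Their median change was -0.89 against -0.02 over all probe sets. Of these falls 5 were kept with the replicate number as a block, 6 with array weights and 6 with a robust prior. On 20 of the 27 both flooded arrays lay below both controls, where 21.4% of all probe sets did. On 11 the gap was at least 2-fold, as on 2.58% of all probe sets. All lists hold named probe sets only, and these lay lower as a whole. Of the 324 named, 7.1% fell, 128 had both flooded arrays below both controls, 38 of them by at least 2-fold, and the median was -0.17. H6L (LOC107908860), a proline-rich wall protein, read 10.55 and 10.71 in control and 8.39 and 8.48 in flooded root (log2 change -2.20, SE 0.19, limma adjusted p = 0.018). E6, a protein first known from cotton fibre, fell from 11.41 and 10.91 to 8.48 and 9.10 (-2.37, limma adjusted p = 0.034; 0.052 with array weights). CelA1, a catalytic subunit of cellulose synthase, went from 10.36 and 10.86 to 8.77 and 9.25 (-1.60, limma adjusted p = 0.065). With 1 array left out the falls numbered 18 and 12 (control root replicate 1 and 2) and 0 (either flooded array, with 10 or 12 at an unadjusted p under 0.05). In whole roots, fewer cells of a type and less RNA per cell cannot be told apart.

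The fasciclin-like arabinogalactan proteins (FLA), glycoproteins anchored at the cell surface that are linked to wall formation, made up most of these falls. They had 12 genes and 19 probe sets, of which 6 probe sets of 4 genes fell and 15 had both flooded arrays below both controls. Of all probe sets 1.76% fell, and 21.4% had both flooded arrays below both controls. Of the 324 named ones 7.1% fell and 128 had both below. FLA15 went from 9.93 and 9.94 to 8.01 and 8.15 (log2 change -1.86, SE 0.18, limma adjusted p = 0.022), with both pairs nearly level. FLA12 fell from 10.42 and 10.48 to 8.34 and 8.68 (-1.94), and its second probe set, near the lower end of the signals, stood at -0.46. FLA13 fell from 10.10 and 9.68 to 7.56 and 8.20 (-2.01, limma adjusted p = 0.046). All 3 probe sets of FLA19 fell, with log2 changes of -1.91, -2.20 and -2.08, the last at limma adjusted p = 0.0496. FLA6 stood at -1.40 and -1.33 (limma adjusted p = 0.057 and 0.13), FLA4 at -1.26 and FLA7 at -0.89. FLA14 and FLA16 were the exceptions. The 3 probe sets of FLA14 stood at 0.18, 0.18 and 0.04 and that of FLA16 at -0.22, all with overlapping groups.

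The wall-loosening and wall-cutting enzymes gave 2 falls (11.8%) and 0 rises among 17 probe sets (7 and 0 at an unadjusted p under 0.05). By comparison 1.76% of all probe sets and 7.1% of named ones fell. The median of the enzymes was -0.97, and on 11 both flooded arrays lay below both controls. The same held for 21.4% of all probe sets and for 128 of the 324 named ones. Pel (LOC107949717), a pectate lyase that cuts the pectin between cells, fell 6.48-fold, from 8.23 and 8.28 to 5.46 and 5.66 (log2 change -2.70, SE 0.19, limma adjusted p = 0.014). Both of its pairs were tight, and its second probe set, at 4.94 to 5.24 on all arrays, stood at -0.19. PGIPL, named for inhibitors of polygalacturonase rather than for a cutting enzyme, fell from 10.93 and 11.21 to 8.33 and 9.23 (-2.29, limma adjusted p = 0.0475; 0.11 with array weights and 0.054 with a robust prior). XTH, an enzyme that cuts and rejoins xyloglucan, went from 11.92 and 11.53 to 8.51 and 9.74 (-2.60, limma adjusted p = 0.062). Its flooded arrays were further apart than its control arrays.

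Expansins, which loosen walls without cutting them, pointed the same way with wider control pairs. EXPA3D read 7.90 and 9.16 in control and 6.37 and 6.19 in flooded root on 1 probe set (-2.24, limma adjusted p = 0.083), and stood at -2.95 on the other (0.097). EXPA11A stood at -1.73 (0.07). On 5 of the 7 expansin probe sets the flooded arrays were both below the controls, as on 21.4% of all probe sets and 128 of 324 named ones. The exception with the widest control pair was a probe set of EXPA13D, at 9.63 and 6.47 in control against 5.74 and 6.89. Among all 17 wall-enzyme probe sets, 9 and 10 fell without control root replicate 1 and 2 and 0 without either flooded array (6 or 7 at an unadjusted p under 0.05). The cellulase-type gene CEL stood at -1.01 (limma adjusted p = 0.094), while XTH1, XTH3 and PG lay between -0.21 and 0.09 at signals under the reporter bound.

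**Figure D4:**
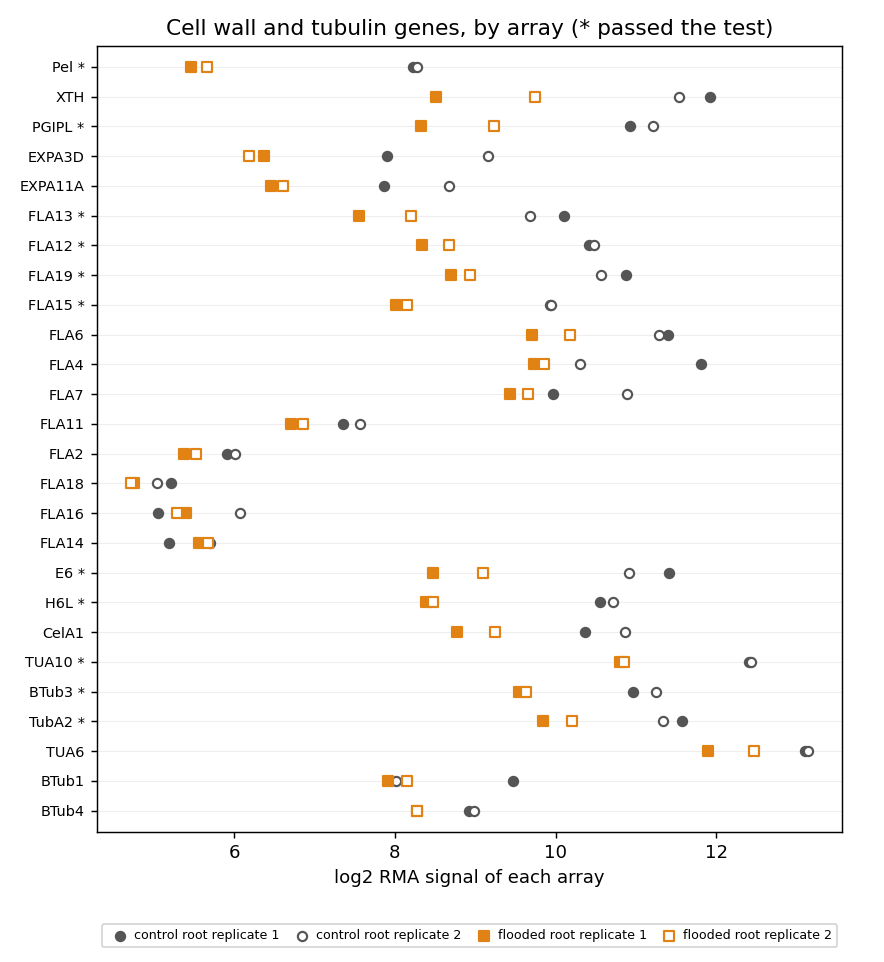
Log2 signal of each root array (x axis) for 5 wall genes of the enzyme list (Pel, XTH, PGIPL, EXPA3D and EXPA11A), the FLA genes, E6, H6L, CelA1 and the tubulins, 1 probe set per gene (that of smallest p), with an asterisk where it passed limma. Control arrays (circles) lie right of flooded arrays (squares) in nearly all rows, in part because of which genes and probe sets were drawn. By the probe set of smallest p, the 5 genes of the enzyme list have the largest falls of that list. EXPA13D, EXPA1D, CEL, XTH1, XTH3 and PG changed less by that measure and are not drawn. Another probe set of EXPA13D stood at -1.74 with overlapping groups. Of the genes drawn, FLA14, FLA16 and BTub1 have groups that overlap.

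Tubulins, the subunits of the microtubules that guide cellulose deposition, accounted for all 3 falls of the cytoskeleton list. TUA10 (LOC107905189), an alpha tubulin, read 12.40 and 12.43 in control and 10.80 and 10.85 in flooded root (log2 change -1.59, SE 0.18, limma adjusted p = 0.026). Its 2 dim probe sets stood at -0.56 and -0.58. The beta tubulin BTub3 fell from 10.96 and 11.25 to 9.54 and 9.63 (-1.52, limma adjusted p = 0.034). The alpha tubulin TubA2 fell from 11.57 and 11.33 to 9.84 and 10.20 (-1.43, limma adjusted p = 0.0495; 0.08 with array weights, 0.055 with a robust prior and 0.052 with medians aligned). TUA6 stood at -0.94 and BTub4 at -0.67, and on 7 of the 8 tubulin probe sets the flooded arrays were below both controls. The same held for 21.4% of all probe sets and for 128 of the 324 named ones. None of the 5 actin genes, which build the other main filament of plant cells, passed. Their changes lay between -0.78 and -0.34, so they too were negative. The kinesin-13 gene KIS13A1 stood at -0.78 (limma adjusted p = 0.11) and the annexins AnnGh1 and Anx1 at 0.05 and -0.16. Of all probe sets 1.76% fell, and of named ones 7.1%. Among the 18 probe sets of the cytoskeleton list 3 fell and 0 rose (9 and 0 at an unadjusted p under 0.05), with a median of -0.69. With the replicate number as a block 0 of the 3 passed (adjusted p = 0.054 for TUA10, 0.06 for BTub3 and 0.087 for TubA2), and 7 were lower at an unadjusted p under 0.05. The falls numbered 8 and 6 without control root replicate 1 and 2, and 0 without either flooded array, with 3 or 4 at an unadjusted p under 0.05.

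In phenylpropanoid and terpenoid synthesis, DFR and CCoAMOT2 fell. DFR (LOC107957957), the dihydroflavonol reductase on the way to anthocyanins and proanthocyanidins, went from 10.44 and 9.70 to 7.42 and 7.51 (6.09-fold, log2 change -2.61, SE 0.31, limma adjusted p = 0.028). CCoAMOT2, a methyltransferase of lignin precursors, fell from 11.67 and 12.05 to 10.35 and 9.81 (-1.78, limma adjusted p = 0.048; 0.084 with array weights and 0.055 with a robust prior). The delta-cadinene synthase cdn1, of the pathway to the defence compound gossypol, stood at -1.17 (0.083). Chalcone synthases open the flavonoid pathway. CHS3 stood at 1.01 (0.12), from 5.14 and 5.39 to 6.06 and 6.49, CHS6 at -0.43, and the 4 probe sets of CHS2 between -1.10 and 0.19, most of them dim. While 1.76% of all probe sets and 7.1% of named ones fell, 2 of the 10 probe sets of this list fell and 0 rose. At an unadjusted p under 0.05, 3 were lower and 1 higher, and the median was -0.62. The falls numbered 6 without control root replicate 1, 2 without control root replicate 2, and without either flooded array 0, with 3 or 2 at an unadjusted p under 0.05.

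Of the genes of other hormones and late embryogenesis, Lea5-D and Aux4 rose. Lea5-D, a late embryogenesis abundant gene of a class known for drought and abscisic acid responses, went from 9.09 and 9.49 to 10.93 and 11.09 (log2 change 1.72, SE 0.23, limma adjusted p = 0.034; 0.061 after quantile normalization), while Lea14-A stood at -0.44. Aux4, whose name points to the auxin-responsive class, rose on 1 probe set from 7.52 and 7.20 to 9.23 and 8.84 (1.68, limma adjusted p = 0.041; 0.061 with array weights). A second stood at 1.80 (0.071) and the remaining ones at -0.73 and -0.05, with control arrays as far apart as 5.05 and 6.90. Aux3 stood at -0.85 and Aux2 at 0.60. Lox1, a lipoxygenase by its name, read 11.37 and 12.15 in control and 13.65 and 13.47 in flooded root (1.80, limma adjusted p = 0.062). Gibberellin receptors bind the hormone and then remove DELLA repressors. The receptor gene GID1-4 stood at -0.96 (0.13), GID1-2 at 0.85 (0.31) and the DELLA gene GAI2 at -1.24 (0.1). Over all probe sets 2.5% rose and 1.76% fell, and over the 324 named ones 4.01% and 7.1%. Of the 14 probe sets of this list 2 rose and 0 fell (5 and 4 at an unadjusted p under 0.05), with a median of -0.04. Without control root replicate 1 or 2, 4 or 5 rose and 5 or 4 fell. Without either flooded array 0 passed, with 4 rises and 1 fall at an unadjusted p under 0.05.

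Membrane transport and lipid genes gave single calls. MFS, a carrier of the major facilitator superfamily, fell from 11 and 10.82 to 9.01 and 8.96 (log2 change -1.92, SE 0.19, limma adjusted p = 0.022). ANT1, the adenine nucleotide translocator that exchanges ATP and ADP across the inner mitochondrial membrane, stood at -2.13, -0.54 and 0.03 on its 3 probe sets (limma adjusted p = 0.09, 0.29 and 0.99). The gene labelled KT, a symbol used for potassium transporters, stood at 1.64 (0.12), the vacuolar sodium-proton exchanger NHX1 at 0.91 (0.14), and the aquaporin NIP6.1 at -1.04, with control arrays of 9.18 and 7.88. The proton pumps of the vacuole, VP, VATE and DET3, lay between -0.28 and 0.35. Falls made up 1.76% of all probe sets and 7.1% of named ones. Of 11 transport probe sets 0 rose and 1 fell (2 and 2 at an unadjusted p under 0.05), with a median of -0.26. Without control root replicate 1, 4 rose and 2 fell, and without replicate 2, 3 fell. Without either flooded array 0 passed, with 2 falls and 1 or 0 rises at an unadjusted p under 0.05.

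The phospholipase D gene pldd, of a class that releases the signal lipid phosphatidic acid, rose from 9.99 and 9.90 to 11.48 and 11.54, with both pairs tight (log2 change 1.57, SE 0.18, limma adjusted p = 0.027). The fatty acid desaturase FAD78-1A stood at -1.62 (0.097) and the cyclopropane synthases at -0.89 (CPA-FAS-2), 0.19 (CPA-FAS-3) and 0.25 (CPA-FAS-1). Rises were 2.5% of all probe sets and 4.01% of named ones. Of the 15 lipid probe sets only that of pldd passed, the median was -0.04, and 2 fell at an unadjusted p under 0.05. Without control root replicate 1, 3 rose and 1 fell, without replicate 2, 1 rose and 2 fell, and without either flooded array 0 passed (1 rise and 1 fall at an unadjusted p under 0.05).

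No probe set passed among 26 for calcium, kinase and small GTPase signalling in limma, where 2 were higher and 3 lower at an unadjusted p under 0.05. At that threshold 10.3% of all probe sets were higher and 7.53% lower, and of the 324 named ones 45 were higher and 80 lower. Rac2, a small GTPase of the family that acts on NADPH oxidases and the cytoskeleton, came nearest. It read 10.21 and 9.79 in control and 8.72 and 8.62 in flooded root (-1.33, limma adjusted p = 0.057). MAPKKK, at the head of a kinase cascade, stood at 1.39 (0.087), and the 6 probe sets of the kinase MPK3 between -0.25 and 0.27. CBL1, a calcium sensor, stood at 0.99 and 0.98 with flooded arrays above controls on both probe sets, as on 25.1% of all probe sets. Without control root replicate 1, 4 rose and 2 fell, and without replicate 2, 1 rose and 3 fell. Leaving out either flooded array left 0, with 1 and 2, or 3 and 2, at an unadjusted p under 0.05. Likewise 0 of 8 probe sets for elongation factors and ribosomal proteins passed in limma, 1 being lower at an unadjusted p under 0.05. That one, of the elongation factor EF1A7, read 12.19 and 12.16 in control and 11.38 and 11.42 in flooded root (-0.78, limma adjusted p = 0.11) and fell without either control array, while RPS16 and RL37a stood at -0.04 and 0.06. RCA1 stood at -0.34 with all arrays between 5.22 and 5.89.

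Some of these folds start or end near the lower end of the array's range. The 95th percentile of the 52 reporter sets, taken as a bound, was 6.435 in control and 6.127 in flooded root. It is no detection limit, since 54.3% of all probe sets lay under it in control and 49.6% in flooded root. Both control arrays lay under it in 140 of the 600 rises, among them GhiAffx.64116.1.S1_at, LOC107937059, LOC107946138, SusA1, MYB5 and PAP1, and both flooded arrays lay under it in 61 of the 423 falls, among them Pel. RMA is known to compress differences at low signal, so the folds of these probe sets are not exact and give no order among themselves. Probe sets of 1 gene did not always move together. Of 122 genes with several probe sets, 20 had a call. In 3 of these every probe set passed, in 15 all had the same sign, and in 0 did calls run both ways. LOC107894299 came close to calls both ways. It had a called fall (-1.70, limma adjusted p = 0.035) beside probe sets at 1.71 (0.0506) and 2.25 (0.079), all with groups apart.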

How the data were processed

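Whole-root RNA was read on 1-colour Affymetrix cotton arrays. The signals of 24132 probe sets were deposited by the authors on the log2 scale, with 0 columns left unmatched to a sample. RMA and limma are named, without version or role, in the submitters' processing notes. The number of arrays limits the precision.

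Group means of the 4 root arrays were compared in limma (version 3.58.1, under R 4.3.3). The fit had a residual df of 2 and a prior df of 2.58, no filter and no pseudocount, and was tested on simulated data. P-values were adjusted by Benjamini and Hochberg over 23977 probe sets, with a threshold of 0.05. The p-values weigh the difference of group means only against the spread of arrays within groups, moderated across probe sets. Gene lists were counted, not tested as sets.

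The platform's table, read through RefSeq gene synonyms (Gossypium_hirsutum_v2.1), paired 697 tested probe sets with 1 gene, 46 with several and 23234 with none. Lists were matched by symbol only, and A and D genome copies may share a probe set.

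The rule for named genes took the 12 largest rises and falls with an adjusted p under 0.05, a 2-fold change and groups apart, up to 4 members of smallest p in each of 16 lists, and 2 unnamed probe sets each way. Other list members were named after their values were seen. The members and lists were chosen with earlier results of these data known. Alternatives are given in the closing section.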

Additional observations from a re-analysis of the deposited data

How the results depend on the processing

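The counts of 600 rises and 423 falls depended on the variance and on which arrays entered. They were 1539 and 1029 with the leaf arrays sharing the variance, 974 and 672 without dim probe sets, and 56 and 8 at an adjusted p under 0.01. Quantile normalization of the root arrays gave 728 and 707, which brings rises and falls nearly level. Leaving out 1 array gave 0 to 3962 rises and 0 to 3365 falls. The intensity trend, robust prior, array weights, median centring and kept reporter sets left both counts within 1.5 times. The 2-fold criterion could remove no call, since every call already exceeded it. With the replicate number as a block, limma called 487 rises and 270 falls. The labels give no shared origin for equal numbers, and the deviations of equal-numbered arrays were nearly uncorrelated (r = 0.0362), so the numbers were not treated as pairs. No named gene that passed changed sign under any alternative run, which says little about stability. With groups at least 2-fold apart, leaving out 1 array could not turn a sign. Most of the other runs keep the same difference of group means. Of the 28 leading probe sets, 28 lost their call without either flooded array, 7 with array weights, 1 with the robust prior, 1 with the block and 23 at the stricter threshold, and all kept it under the other alternatives. The block kept 24 of the 36 calls among named probe sets. The calls it ended include those of E6 (adjusted p = 0.051), TUA10, BTub3, TubA2, CCoAMOT2 and pldd (0.054 to 0.087). With 2 arrays per group, small changes cannot be told from the spread, most of all for probe sets on which the control arrays differ.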

Other observations

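Outside the lists, some enzymes of wall precursors and sterols were picked out after their values were seen, so they stand as single genes and not as a group. UGD2, the dehydrogenase that makes UDP-glucuronic acid, read 8.97 and 9.25 in control and 7.24 and 7.44 in flooded root (log2 change -1.77, SE 0.21, limma adjusted p = 0.029). RHM3, of the enzymes that make UDP-rhamnose for pectin, fell from 11.08 and 11.12 to 9.82 and 9.71 (-1.33, limma adjusted p = 0.035). CTL1, a chitinase-like protein needed for normal cellulose in Arabidopsis, fell from 11.11 and 11.31 to 9.94 and 10.01 (-1.24, limma adjusted p = 0.0459). GAE2, of the epimerases that make UDP-galacturonic acid, read 9.26 and 10.47 against 7.78 and 8.04 (-1.95, limma adjusted p = 0.1), and did not pass. The sterol methyltransferase SMT2-1 fell by 1.81 on the log2 scale (limma adjusted p = 0.024), while SMT2-2 stood at -0.62.

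Among enzymes that use or make S-adenosylmethionine, the methyl donor and precursor of ethylene and polyamines, MAT read 13.34 and 13.39 in control and 12.43 and 11.73 in flooded root (-1.29, limma adjusted p = 0.1). SAMDC, the decarboxylase on the polyamine branch, read 12.56 and 12.81 against 11.67 and 11.16 (-1.27, limma adjusted p = 0.084). Neither passed. GEPH and BNLGHi8377, of uncertain product, rose by log2 changes of 2.53 and 2.15. BNLGHi8377 stood at 1.28 (limma adjusted p = 0.055) and -0.39 on its other probe sets.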
